A study of Mus musculus with 28 samples.

Results

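Collagens are the triple-helical proteins of the extracellular matrix, and the set described here holds every collagen gene with a probe set of its own on the array: 42 of 18820 measured genes. Members were chosen by symbol alone (Col, a number, a, a number) among probe sets that name exactly 1 gene. They came from 46 probe sets, and where a gene had more than 1 the one brightest on average across the arrays represented it. Col7a1 and Col9a3 lay only on probe sets shared with another gene and were not members.

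A collagen chain is made in the endoplasmic reticulum, hydroxylated on proline and lysine, wound with partner chains into a triple helix, secreted, trimmed at its ends and cross-linked. Fibrillar collagens form the ropes of scar and vessel walls, type IV collagen forms the sheet of basement membranes, and fibril-associated collagens sit on the surface of fibrils. In liver, quiescent and activated stellate cells and portal fibroblasts make most fibrillar collagen, endothelial cells add basement membrane chains, and hepatocytes are known for type XVIII collagen.

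Liver RNA of 28 male C57BL/6J mice, 1 array for each mouse, was measured on single-colour whole-transcript arrays. Every mouse was on an intermittent diet that alternated a week of moderate-fat food (25% of energy from fat) with a week at 60% of the control mice's energy intake. In the switched group (24 months old, n = 8) the mice ate moderate-fat food continuously until 12 months of age and the alternation afterwards. In the lifelong groups, the alternation began at 9 weeks of age, and 6 livers were sampled at 6 months, 7 at 12 months and 7 at 24 months. Before the liver was taken, each mouse fasted for 4 hours, received a gavage of carboxymethyl cellulose, and fasted 6 hours more. The sources used here do not give the week of the cycle at sampling, and age and time on the diet rise together in the lifelong groups.

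Values are log2 expression, and every difference is a difference of log2 values fitted with limma with the array batch as a term. The batch (G150, G151 or G152) is the first field of the array name. Batch G150 held 4 livers of each lifelong group and 6 of the switched group, and the others held 1 or 2 livers of each group. Array medians lay between 5.23 and 5.31. Albumin, the main hepatocyte secretory protein, averaged 13.62 ± 0.05 in switched livers (SD, n = 8), and 13.67 ± 0.04, 13.61 ± 0.08 and 13.59 ± 0.03 in lifelong livers at 6, 12 and 24 months (SD, n = 6, 7 and 7). None of the collagen genes, 0 of 42, lay among the dimmest 30% of probe sets by mean, but no detection call was made, so this does not show that each was expressed. Col12a1 averaged 4.73 at 12 and 4.72 at 24 months, and the group means of Col5a2 ran from 4.56 to 4.75. All of these lay below every array median. In whole liver, a lower value cannot separate fewer cells of a type from less RNA per cell.

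The set falls into 11 fibrillar chains, 6 basement membrane chains of type IV, 2 multiplexins, 6 beaded-filament chains of type VI, 8 fibril-associated chains, 3 hexagonal-network chains, 4 membrane-spanning chains and 2 others. RefSeq start sites on build GRCm38.p6 were found for 34 of the 42 genes. The upstream sequences of 3 members whose values moved together between livers (type I chain Col1a2, type III chain Col3a1 and type VI chain Col6a3) are shown first, because the covariation described further on concerns them. Each line gives 250 bases 5′ to 3′ on the gene's strand, and capitals mark matches, on either strand, to any of 3 short motifs. The first motif, CCAAT, is a common element of vertebrate promoters, the second, GGGCGG, is the core of sites bound by Sp family factors, and the third, TATAAA, is the form of the element at which the general transcription machinery assembles. The windows are chr6:4505368-4505617 (plus strand) for Col1a2, chr1:45311288-45311537 (plus strand) for Col3a1 and chr1:90843972-90844221 (minus strand) for Col6a3.
Col1a2: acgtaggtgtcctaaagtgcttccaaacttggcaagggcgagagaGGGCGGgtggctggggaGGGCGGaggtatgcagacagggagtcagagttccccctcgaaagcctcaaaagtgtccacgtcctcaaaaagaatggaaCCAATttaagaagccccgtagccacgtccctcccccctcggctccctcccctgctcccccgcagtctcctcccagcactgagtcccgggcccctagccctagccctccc
Col3a1: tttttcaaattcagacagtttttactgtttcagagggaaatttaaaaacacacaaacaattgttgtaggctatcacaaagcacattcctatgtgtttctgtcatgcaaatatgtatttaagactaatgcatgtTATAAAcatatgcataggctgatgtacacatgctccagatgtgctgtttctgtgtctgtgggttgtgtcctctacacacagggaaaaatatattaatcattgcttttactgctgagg
Col6a3: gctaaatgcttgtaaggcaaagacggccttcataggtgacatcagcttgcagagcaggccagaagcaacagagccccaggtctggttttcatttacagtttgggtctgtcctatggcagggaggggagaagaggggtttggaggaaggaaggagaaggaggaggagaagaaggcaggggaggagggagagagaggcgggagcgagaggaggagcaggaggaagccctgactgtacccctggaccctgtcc

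Col1a2 held CCAAT 109 to 105 bases before its start and GGGCGG at 205 to 200 and 188 to 183 bases before it. Col3a1 held TATAAA 117 to 112 bases before its start, and Col6a3 held none of the 3 motifs in this window. Part of the Col6a3 window lies inside the full span of that gene, which reaches chr1:90844001. Over 32851 RefSeq promoter windows of the same length, CCAAT was found on either strand in 33.8%, GGGCGG in 32.7% and TATAAA in 12.4%. Of 37 windows of the 34 collagen genes, some of which have more than 1 window, 12, 21 and 5 held these motifs. A match is only a run of letters and shows no factor bound there.

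Col4a1 and Col4a2, the 2 chains of the common type IV protomer, lie head to head. The RefSeq starts used here are at chr8:11312826 (minus strand) for Col4a1 and chr8:11312805 (plus strand) for Col4a2, so with these starts the first 22 bases of both transcripts are the same stretch of DNA. The full span of the Col4a1 gene reaches chr8:11312889, and a transcript from there would overlap Col4a2 further. The line gives chr8:11312801-11312830 on the plus strand, with the bases shared at the starts used in capitals.
Col4a1/Col4a2: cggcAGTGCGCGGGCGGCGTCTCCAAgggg

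The comparison of 12 with 6 months on the lifelong diet asks how collagen expression differed between middle-aged and young mice. Col12a1, a fibril-associated collagen that binds the surface of type I fibrils, fell, and the other 41 collagens did not pass the test. In the livers at 12 months its values were 4.88, 4.49, 4.67, 4.74, 4.61, 4.52 and 5.23, against 4.84, 6.00, 6.24, 5.93, 5.23 and 5.24 at 6 months, in replicate order. Among the 6-month livers, replicates 2, 3 and 4 were high and replicate 1 lay within the range of the 12-month livers, so the groups overlapped. The difference was -0.85 (SE 0.17), or 1.80-fold lower, with an adjusted p of 0.0327 (limma, Benjamini-Hochberg over all probe sets). The SD of Col12a1 was 0.55 at 6 months (n = 6), 0.25 at 12 and 0.26 at 24 months (n = 7 each), and 0.12 in switched livers (n = 8). The fit shares 1 spread estimate over these groups, so the SE understates the spread of the 6-month livers and the adjusted p may be too small. At 12 months 7 of 7 livers were below the 6-month mean, and the differences within batches G150, G151 and G152 were -0.76, -1.36 and -0.50. The call was lost when any one of 6-month replicates 2, 3, 4 or 6 or of 12-month replicates 2, 3, 4, 5 or 6 was left out. It was also lost with a replicate block beside the batch term (limma adjusted p = 0.072), with only these groups in the fit (0.158), in batch G150 alone (0.648), in batches G151 and G152 alone (0.329) and without the 2 arrays that have a suffix in their name (0.0577). Without 6-month replicate 4 the difference was -0.75 (limma adjusted p = 0.127), the highest adjusted p of the fits with 1 liver left out, and without 12-month replicate 2 it was -0.80 (limma adjusted p = 0.053), the lowest adjusted p among those that lost the call. The differences without 6-month replicates 2, 3 and 6 were -0.77, -0.72 and -0.90, and those without 12-month replicates 3, 4, 5 and 6 were -0.83, -0.88, -0.83 and -0.81.

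Set against all genes, 1 of 42 collagens called at 12 months compares with 0.829% of all genes called, 0.287% lower and 0.542% higher. An unadjusted limma p under 0.05 was reached by 3 of 42 collagens (2 higher, 1 lower), against 15.1% of all genes (8.34% higher, 6.73% lower). The median collagen difference was +0.018, against +0.0068 over all genes, and 25 of 42 collagens had a positive difference. After Col12a1, the collagens with the smallest p were Col5a3 (+0.20, limma adjusted p = 0.21), a type V chain, and Col16a1 (+0.13, limma adjusted p = 0.34), another fibril-associated chain. Type I chains Col1a1 and Col1a2 differed by +0.05 (95% interval -0.21 to 0.30) and -0.14 (-0.44 to 0.16), and Col3a1 by -0.13 (-0.37 to 0.10).

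The livers that were high in Col12a1 at 6 months were also high in targets of PPARA, the nuclear receptor of fasting that switches on fatty acid oxidation. A PPARA target score, how far 21 measured targets lay on average from their mean across livers, was -0.41, 0.75, 0.78, 0.78, 0.05 and -0.38 in 6-month replicates 1 to 6. It ranged from -0.24 to 0.35 in switched livers, and from -0.59 to 0.40 and -0.29 to 0.17 in lifelong livers at 12 and 24 months. This target list was added after the values were seen, and its part in the Col12a1 difference was not tested. The residual SD of Col12a1 between livers, 0.33, was at the 94.4th percentile of all genes, whose median was 0.16.

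**Figure D1:**
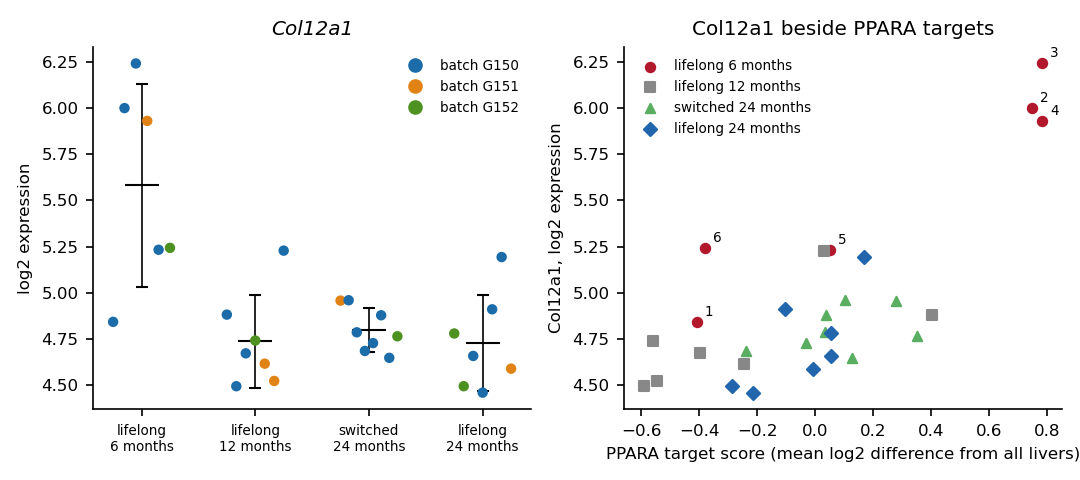
Col12a1 in each liver. Left: log2 expression by group, points coloured by array batch, bars for mean and SD. Right: the same values against the PPARA target score, with the replicate numbers of 6-month livers; replicates 2, 3 and 4 lie at 5.93 to 6.24 with scores of 0.75 to 0.78, above all other livers on both axes.

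The comparison of 24 with 6 months asks what differed between old and young mice on the lifelong diet, and it shares the 6-month livers with the comparison above. Col12a1 again fell, and it was the 1 of 42 collagens called, against 6.23% of all genes (3.22% lower and 3.01% higher). In 24-month livers it had values of 4.78, 4.49, 4.66, 4.46, 4.91, 5.19 and 4.59, against the 6-month values given above, which the 24-month range overlapped at its upper end. The difference was -0.84 (SE 0.17), 1.79-fold lower, with a limma adjusted p of 0.00651 and within-batch differences of -0.78, -1.34 and -0.61. The limit of the shared spread estimate given above holds here too. The call was kept in 13 of 13 fits with 1 liver left out, and it was lost in batch G150 alone (limma adjusted p = 0.162), in batches G151 and G152 alone (0.269) and with only these groups in the fit (0.0769). Between 24 and 12 months Col12a1 differed by +0.0069 (95% interval -0.34 to 0.35).

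At 24 months an unadjusted limma p under 0.05 was reached by 3 of 42 collagens, 2 higher and 1 lower, against 22.2% of all genes (10.7% higher, 11.4% lower). The median collagen difference was +0.018, against -0.0016 over all genes, and 23 of 42 were positive. In addition to Col12a1, these were Col6a3, the long chain of type VI beaded filaments, and Col15a1, a basement membrane zone multiplexin. Both were higher in value at 24 months and neither passed.

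**Figure D2:**
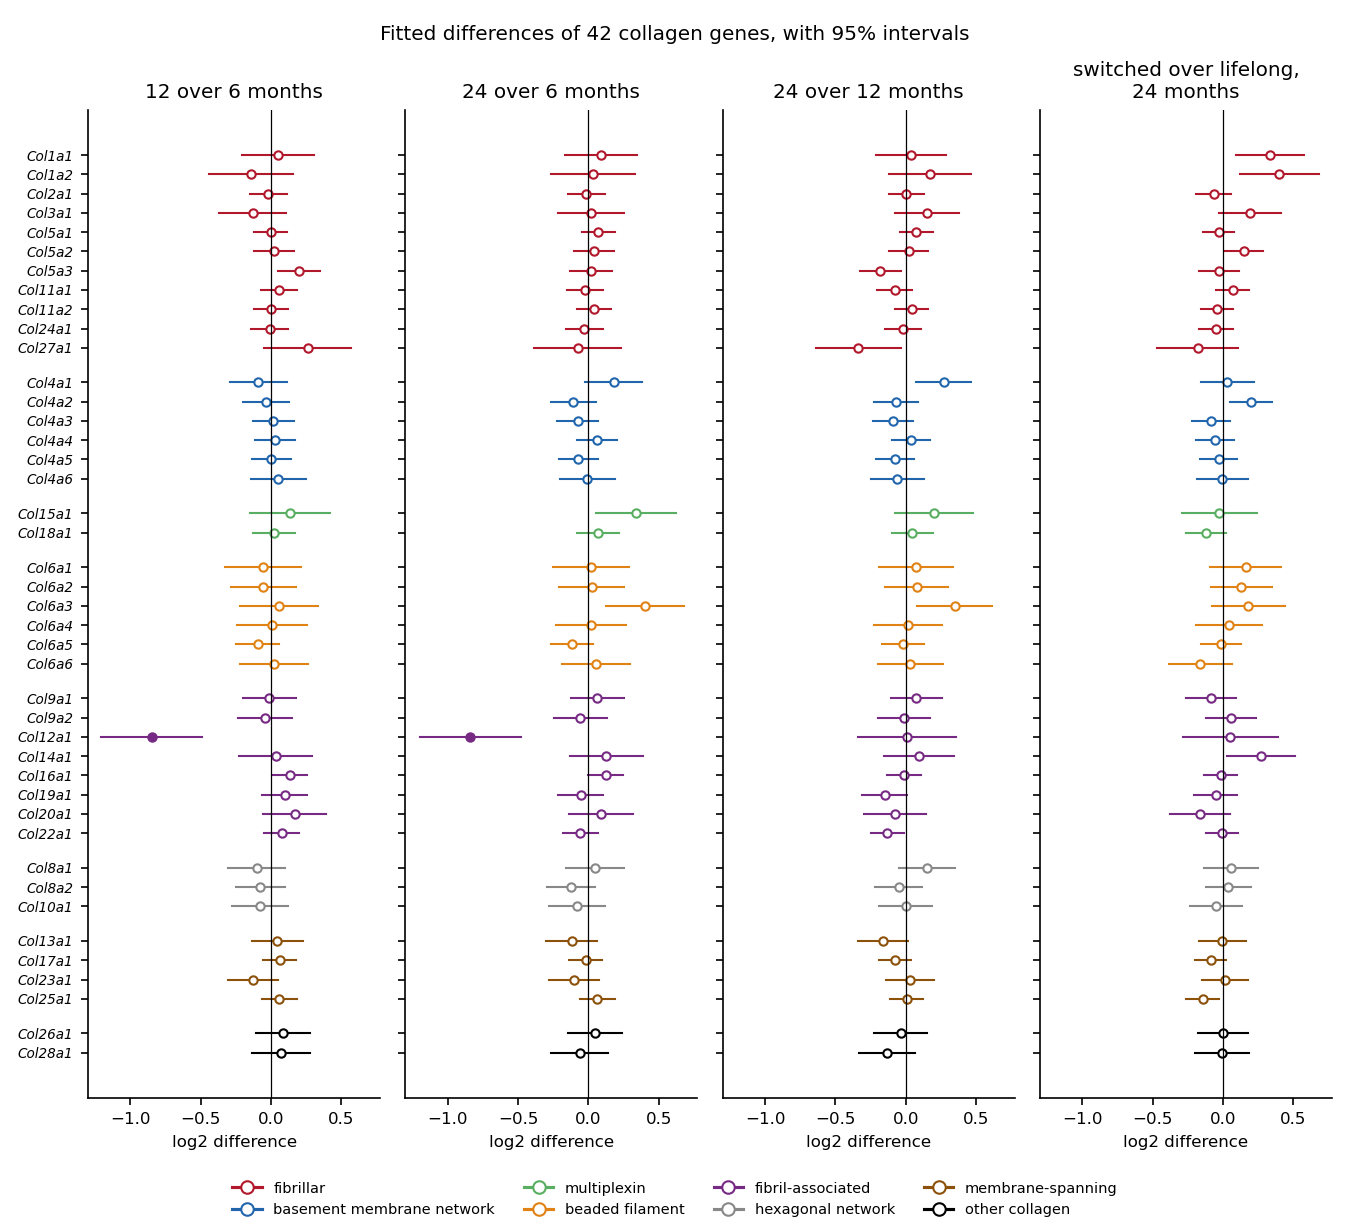
Fitted log2 differences of all 42 collagens in the 4 comparisons, with 95% intervals as horizontal lines and genes grouped and coloured by class; a positive value is higher in the group named first in the panel title. Filled points mark calls at the adjusted threshold, and Col12a1 at 12 and at 24 months over 6 months (-0.85 and -0.84) is the only gene filled.

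Col6a3 had the smallest p after Col12a1 between 24 and 6 months, and unlike Col12a1 its values in these groups did not overlap. In lifelong livers it ranged from 5.47 to 5.68 (median 5.59) at 6 months, from 5.28 to 6.23 (median 5.61) at 12 months and from 5.70 to 6.38 (median 5.88) at 24 months. The lowest liver at 24 months lay just above the highest at 6 months, and higher without overlap was also found in 1.22% of all genes. The difference between 24 and 6 months was +0.40 (SE 0.13), 1.32-fold, with a limma adjusted p of 0.0806, and +0.46, +0.27 and +0.39 within batches G150, G151 and G152. Between 24 and 12 months it was +0.35 (limma adjusted p = 0.295), with within-batch values of +0.50, +0.27 and -0.19. The partner chains Col6a1 and Col6a2, which assemble with Col6a3 into one heterotrimer, differed between 24 and 6 months by +0.02 (95% interval -0.26 to 0.29) and +0.02 (-0.21 to 0.26). Col6a1 ranged from 6.22 to 6.39 (median 6.30) at 6 months, from 5.79 to 6.58 (median 6.31) at 12 months and from 5.85 to 6.64 (median 6.47) at 24 months, a wider range in the 12- and 24-month livers than in the 6-month livers. Col6a2 ranged from 5.63 to 6.01, from 5.64 to 6.15 and from 5.63 to 6.19 at the same ages. The remaining type VI chains, Col6a4, Col6a5 and Col6a6, did not pass in any comparison.

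Col15a1 ranged from 5.37 to 6.23 (median 6.00) at 6 months, from 5.89 to 6.25 (median 5.98) at 12 months and from 5.90 to 6.44 (median 6.31) at 24 months. At 24 months 7 of 7 livers exceeded the 6-month mean, but the groups overlapped. The difference between 24 and 6 months was +0.34 (SE 0.14), with a limma adjusted p of 0.167, and it was +0.31 and +0.95 within batches G150 and G152 but -0.32 within batch G151. Col18a1, the other multiplexin and the precursor of endostatin, ranged from 9.37 to 9.70, from 9.42 to 9.74 and from 9.48 to 9.89 at 6, 12 and 24 months, and differed between 24 and 6 months by +0.07 (95% interval -0.08 to 0.22).

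Basement membrane chains were described next. Col4a1 ranged from 5.90 to 6.20 (median 5.98) at 6 months, from 5.67 to 6.11 (median 5.95) at 12 months and from 5.98 to 6.38 (median 6.31) at 24 months. It differed between 24 and 12 months by +0.27 (SE 0.09; limma adjusted p = 0.263), with 7 of 7 livers at 24 months above the 12-month mean, and between 24 and 6 months by +0.18 (limma adjusted p = 0.329). Col4a2 ranged from 5.85 to 6.13 (median 6.01), from 5.77 to 6.28 (median 5.92) and from 5.72 to 6.07 (median 5.85) at the 3 ages, and differed between 24 and 6 months by -0.11 (limma adjusted p = 0.497). For the pair, which shares the stretch of DNA printed above, the differences had opposite signs between 24 and 6 and between 24 and 12 months and the same sign between 12 and 6 months (-0.09 for Col4a1 and -0.04 for Col4a2), and neither gene passed. Whether the differences of both chains were unequal was not tested. The 4 chains of kidney- and smooth-muscle-type networks, Col4a3, Col4a4, Col4a5 and Col4a6, differed by between -0.09 and +0.06 in all 3 age comparisons.

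Fibrillar chains showed no call with age. Col1a1 ranged from 5.79 to 6.10 (median 5.99) at 6 months, from 5.77 to 6.36 (median 5.97) at 12 months and from 5.49 to 6.38 (median 6.16) at 24 months. Col1a2 ranged from 5.96 to 6.47 (median 6.13), from 5.75 to 6.54 (median 5.91) and from 5.81 to 6.70 (median 6.27), and Col3a1 from 5.91 to 6.23 (median 6.11), from 5.78 to 6.18 (median 5.98) and from 5.82 to 6.45 (median 6.12). The 24-month livers reached both lower and higher than the 6-month livers in Col1a1, Col1a2 and Col3a1. Between 24 and 6 months Col1a1 differed by +0.09 (95% interval -0.17 to 0.34), Col1a2 by +0.03 (-0.27 to 0.33) and Col3a1 by +0.02 (-0.22 to 0.25). Between 24 and 12 months 0 of 42 collagens were called, against 0.0266% of all genes, and 5 of 42 had an unadjusted limma p under 0.05 (2 higher, 3 lower), against 12.3% of all genes (5.83% higher, 6.46% lower). The median collagen difference there was +0.0053, against -0.014 over all genes, with 22 of 42 positive. The 3 lower ones were Col27a1 (-0.34, limma adjusted p = 0.382) and Col5a3 (-0.18, limma adjusted p = 0.325) of the fibrillar class and Col22a1 (-0.13, limma adjusted p = 0.395) of the fibril-associated class. All 7 livers at 24 months were below the 12-month mean in Col27a1 and in Col5a3, and 6 of 7 other livers, at 12 months, were above the 6-month mean in each. The same 12-month livers enter both comparisons, so these directions are not independent. Within batches G150, G151 and G152 the differences between 12 and 6 months were +0.05, +0.65 and +0.53 for Col27a1. For Col5a3 they were +0.19, +0.07 and +0.39.

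The comparison of switched with lifelong mice at 24 months asks whether continuous moderate-fat food earlier in life left a difference in old livers. It shares the lifelong 24-month livers with the age comparisons. None of the collagens passed (0 of 42 called by limma, against 0.0266% of all genes), and 6 of 42 had an unadjusted limma p under 0.05, against 7.87% of all genes. Of these, 5 were higher in switched livers (3.91% of all genes) and 1 was lower (3.96% of all genes). The 5 were type I chains Col1a1 and Col1a2, type V chain Col5a2, basement membrane chain Col4a2 and fibril-associated chain Col14a1, and the lower one was the membrane-spanning Col25a1 (-0.14, limma adjusted p = 0.546). The median over the whole set was -0.0085, against -0.0025 over all genes, and 17 of 42 collagens had a positive difference.

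Col1a2 ranged from 5.96 to 7.04 (median 6.61) in switched livers, against 5.81 to 6.70 (median 6.27) in lifelong livers. The difference was +0.40 (SE 0.14), 1.32-fold, with a limma adjusted p of 0.461, and 7 of 8 switched livers lay above the lifelong mean. Within batches it was +0.28, +0.76 and +0.40. Col1a1, its partner in the type I heterotrimer, ranged from 6.01 to 6.79 (median 6.34) in switched livers, against 5.49 to 6.38 (median 6.16) in lifelong livers, a difference of +0.33 (SE 0.12; limma adjusted p = 0.469), and +0.28, +0.74 and +0.17 within batches. The groups overlapped in both chains, since switched replicate 3 lay below the lifelong median in each.

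Col3a1, which forms mixed fibrils with type I collagen, ranged from 6.02 to 6.74 (median 6.23) in switched livers, against 5.82 to 6.45 (median 6.12) in lifelong livers, and differed by +0.19 (limma adjusted p = 0.732). Col5a2, a chain of the type V collagen that nucleates fibrils, ranged from 4.60 to 5.02 (median 4.74), against 4.38 to 4.72 (median 4.61), with +0.15 (SE 0.07; limma adjusted p = 0.6) and 8 of 8 switched livers above the lifelong mean. The other fibrillar chains, which include the cartilage collagens Col2a1, Col11a1 and Col11a2, differed by between -0.18 (Col27a1) and +0.07 (Col11a1). Over all 11 fibrillar chains the median was -0.028, and the 5 positive ones were Col1a1, Col1a2, Col3a1, Col5a2 and Col11a1.

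Col14a1, which binds to fibrils through decorin, ranged from 8.66 to 9.37 (median 9.04) in switched livers, against 8.29 to 9.14 (median 8.85) in lifelong livers. The difference was +0.27 (SE 0.12; limma adjusted p = 0.599), and +0.19, +0.59 and +0.25 within batches. Col4a2 ranged from 5.92 to 6.27 (median 6.02), against 5.72 to 6.07 (median 5.85), with +0.20 (SE 0.07; limma adjusted p = 0.514) and 8 of 8 switched livers above the lifelong mean, whereas Col4a1 differed by +0.03 (95% interval -0.16 to 0.22). Col6a1, Col6a2 and Col6a3 differed by +0.16, +0.13 and +0.18, with limma adjusted p of 0.823, 0.84 and 0.798. Col18a1 had the opposite sign: it ranged from 9.38 to 9.62 (median 9.54) in switched livers, against 9.48 to 9.89 (median 9.54) in lifelong livers, and 0 of 8 switched livers lay above the lifelong mean (-0.12, limma adjusted p = 0.733).

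**Figure D3:**
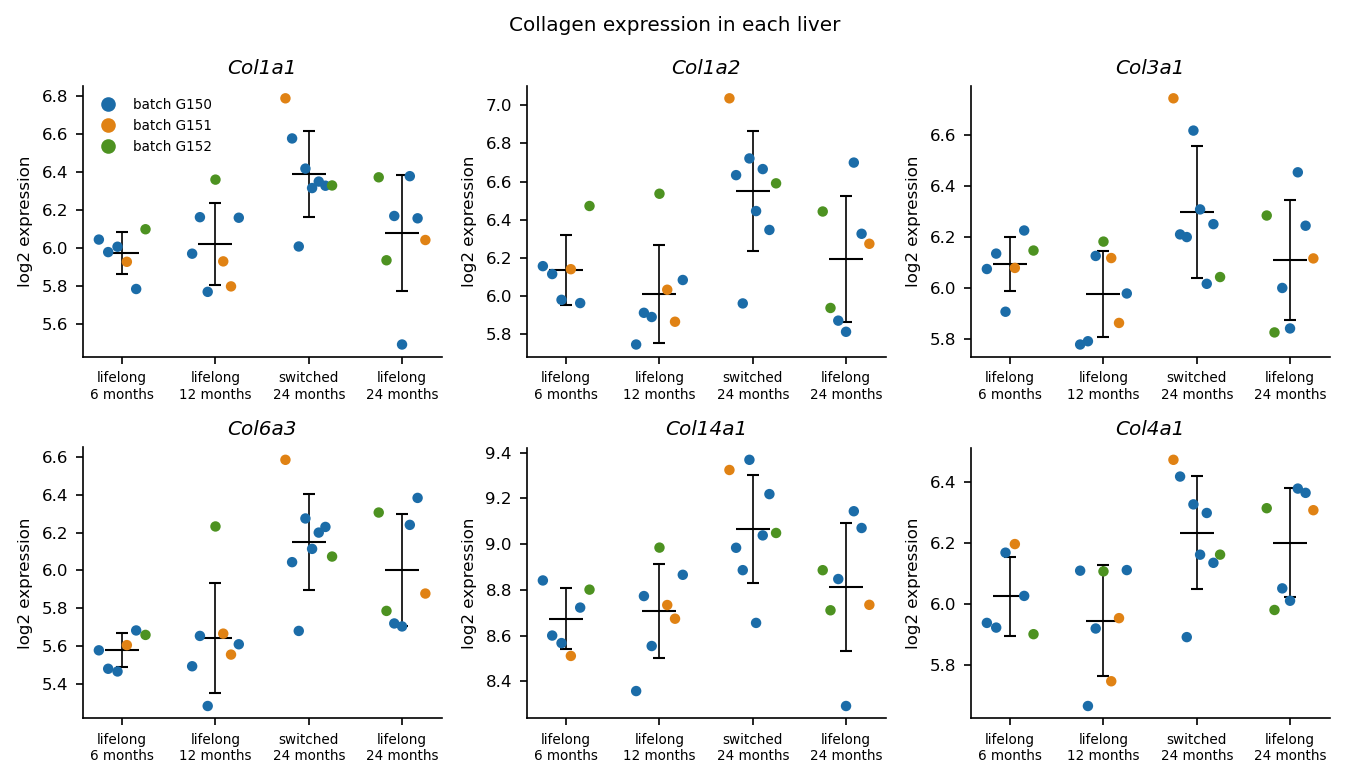
Log2 expression of 6 collagens in each liver, by group, with points coloured by array batch and bars for mean and SD. In switched livers the batch G151 liver is highest in Col1a1 (6.79), Col1a2 (7.04), Col3a1, Col6a3 and Col4a1, and switched and lifelong livers at 24 months overlap in every panel.

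The same livers tended to be high or low in several collagens. Switched replicate 1 was the highest of all 28 livers in Col1a1, Col1a2, Col3a1, Col6a3 and Col4a1, and lifelong 24-month replicate 4 was the lowest of its group in Col1a1, Col1a2, Col6a1, Col6a3 and Col14a1. Over 28 livers and all 861 pairs of collagens, 50 pairs had an adjusted permutation p under 0.05 for Pearson's r. The share among pairs of all genes was not computed. The count therefore does not show that collagens covaried more than other genes. Col1a1 and Col1a2 had r = 0.86 and rho = 0.81, each with a permutation p of 1e-05, the smallest that 100000 permutations can give (adjusted over 861 pairs, 0.000957 for r and 0.00215 for rho). With group and batch means removed r was 0.80, without the 2 livers farthest from the median of Col1a1 it was 0.83, and within the 18 livers of batch G150 it was 0.81.

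Col1a2 and Col6a3 had r = 0.83 and rho = 0.70 (permutation p of 1e-05 and 4e-05, adjusted 0.000957 and 0.00383), with 0.81 after group and batch, 0.78 without the 2 farthest livers and 0.82 within G150. Col14a1 and Col6a1 had r = 0.78 and rho = 0.76 (permutation p of 1e-05 for both), with 0.76 after group and batch, 0.71 without the 2 farthest livers and 0.85 within G150. For 7 genes, Col1a1, Col1a2, Col3a1, Col4a1, Col6a1, Col6a3 and Col14a1, which were picked after the values were seen, the 21 pairs had a median r of 0.66 after group and batch means were removed, from 0.34 to 0.81. Over all 861 pairs the median was 0.074.

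Not every pair of chains of one protein passed after adjustment, and whether correlations differed from each other was not tested. The residual SD of Col4a2 was 0.14 (34.1th percentile of all genes), and that of Col4a1 was 0.18 (64.1th percentile). The head-to-head pair Col4a1 and Col4a2 had r = 0.32 and rho = 0.32 (permutation p = 0.0993 and p = 0.101, adjusted 0.353 and 0.352), 0.37 after group and batch, 0.22 without the 2 farthest livers and 0.61 within G150, whereas Col4a1 and Col1a2 had r = 0.70 and rho = 0.66 (permutation p = 5e-05 and p = 0.00023, adjusted 0.00307 and 0.0132), 0.67 after group and batch, 0.62 without the 2 farthest livers and 0.75 within G150. Col6a1 and Col6a2, neighbours on chromosome 10, had r = 0.55 and rho = 0.61 (permutation p = 0.00223 and p = 0.00066, adjusted 0.0427 and 0.0255), with 0.48 after group and batch, 0.53 without the 2 farthest livers and 0.67 within G150. Col18a1 and Col1a1 had a negative correlation that did not pass after adjustment, with r = -0.53 and rho = -0.50 (permutation p = 0.00374 and p = 0.00777, adjusted 0.0593 and 0.106), -0.61 after group and batch, -0.41 without the 2 farthest livers and -0.52 within G150. These genes share the RNA sample and array of each liver, and the part of the array in their covariation was not tested. Of the 3 promoters printed above, Col1a2 alone held CCAAT or GGGCGG and Col3a1 alone held TATAAA. The part of these motifs in the covariation was not tested.

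**Figure D4:**
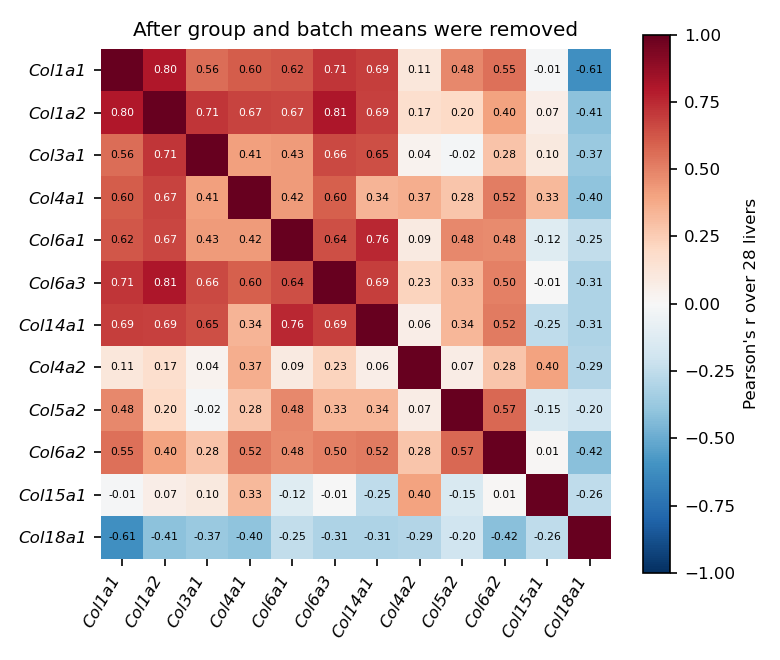
Pearson's r between 12 collagens over 28 livers after group and batch means were removed; each cell is a pair and colour runs from -1 to 1. Col1a1, Col1a2, Col3a1, Col4a1, Col6a1, Col6a3 and Col14a1, picked after the values were seen and placed first, have r from 0.34 to 0.81. Col18a1 is negative with every other gene shown.

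Levels of cell type markers were set beside these values. A score averages, over a list's genes, how far a liver lay from the mean across livers. The 13 markers of portal fibroblasts and mesothelium, which include Gas6, Wt1 and Fbln2, scored from -0.10 to 0.43 (median 0.18) in switched livers, against -0.16 to 0.21 (median 0.01) in lifelong 24-month livers, and from -0.31 to -0.12 and -0.17 to 0.13 at 6 and 12 months. Within the switched group, replicate 1, the highest in Col1a1 and Col1a2, scored 0.32, below the group's highest score of 0.43. Replicate 3, the lowest in both genes, scored -0.10. Scores of the other switched livers were not set against their collagen values. The 15 stellate cell markers scored from -0.12 to 0.19 (median 0.09) in switched livers, against -0.09 to 0.06 (median 0.02) in lifelong 24-month livers, and the 7 myofibroblast markers from -0.08 to 0.27, against -0.25 to 0.32. The 12 Kupffer cell and macrophage markers scored from -0.45 to 1.53 (median 0.03) in switched livers, against -0.53 to 1.02 (median 0.14). At 6 and 12 months the macrophage scores ranged from -0.41 to 0.15 and from -0.74 to -0.28. The part of these cell types in the collagen values was not tested.

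The largest median difference of these marker lists was that of the macrophage markers between 24 and 12 months, where 12 of 12 were positive with a median of +0.68 and 9 of 12 reached an unadjusted limma p under 0.05, all higher, against 12.3% of all genes (5.83% higher). None of the 12 passed after adjustment in that comparison. Of these marker lists, single genes passed between 24 and 6 months, where 6.23% of all genes were called, and in no other comparison. Gas6, a ligand of TAM receptors, rose by 1.04 (limma adjusted p = 0.00811), Ngfr, a stellate cell receptor for nerve growth factor, rose by 0.38 (limma adjusted p = 0.039), Lyz2, a macrophage lysozyme, rose by 1.00 (limma adjusted p = 0.0334), and the hepatocyte enzyme Tat fell by 0.42 (limma adjusted p = 0.0355). Acta2, the smooth muscle actin of myofibroblasts, differed by +0.47 (limma adjusted p = 0.0783), and Pdgfrb, a receptor of stellate cells, by +0.39 (limma adjusted p = 0.0942). The stellate cell list was split between 24 and 6 months: 8 of 15 differences were positive and 7 negative, from -0.66 to +0.39, with a median of +0.0081. An unadjusted limma p under 0.05 was reached by 5 of the 15 (3 higher, 2 lower), against 22.2% of all genes. Markers of endothelium (14) and cholangiocytes (6) had 0 genes called by limma in all 4 comparisons. Of all genes, 0.829% were called between 12 and 6 months, 6.23% between 24 and 6 months and 0.0266% in each other comparison. With lists this small, 0 calls do not show that these cell types stayed unchanged.

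Genes that make, trim, bind, sense and break down collagen were taken from 7 lists. Of 17 genes for collagen hydroxylation and folding, 1 rose and 1 fell between 24 and 6 months and 15 did not pass, against 6.23% of all genes called (3.01% higher, 3.22% lower). An unadjusted limma p under 0.05 was reached by 7 of 17 (2 higher, 5 lower), against 22.2% of all genes, and 10 of 17 had a positive difference. Plod1, a lysyl hydroxylase, averaged 9.76 ± 0.11 at 24 months (SD, n = 7) and 9.48 ± 0.06 at 6 months (SD, n = 6), a rise of 0.27 (limma adjusted p = 0.0358). At 24 months 7 of 7 livers were above the 6-month mean, but the groups overlapped. P4ha2, a catalytic subunit of prolyl 4-hydroxylase, averaged 5.14 ± 0.10 at 24 months and 5.50 ± 0.28 at 6 months, a fall of 0.37 (limma adjusted p = 0.0426), with 0 of 7 livers above the 6-month mean. Its paralogue P4ha1 differed by -0.47 (limma adjusted p = 0.0617) between 24 and 6 months and by -0.51 (limma adjusted p = 0.0998) between 12 and 6 months. The other lysyl hydroxylases, Plod2 and Plod3, differed between 24 and 6 months by +0.10 and +0.17 (limma adjusted p of 0.516 and 0.118), and the other prolyl 4-hydroxylase subunits, P4ha3 and P4hb, by -0.22 and +0.02 (limma adjusted p of 0.201 and 0.947).

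Genes for propeptide processing and cross-linking (12), fibril-binding proteoglycans and glycoproteins (9), collagen receptors (10), collagenases, gelatinases and their inhibitors (14), TGF-beta and CCN inducers (14) and basement membrane partners of type IV collagen (14) had 0 called by limma in all 4 comparisons, and 0 to 4 genes of each reached an unadjusted p under 0.05 in a comparison. Over all genes, 0.829% were called between 12 and 6 months, 6.23% between 24 and 6 months and 0.0266% in each other comparison. Shares of all genes at the unadjusted limma p were 15.1% between 12 and 6 months and 22.2% between 24 and 6 months. They were 12.3% between 24 and 12 months and 7.87% between switched and lifelong livers. The matrix metalloprotease Mmp19 differed by +0.32 between 24 and 6 months (limma adjusted p = 0.0541) and by +0.37 between 12 and 6 months (limma adjusted p = 0.0783). Collagenases and inhibitors had a median of +0.16 between 24 and 6 months, with 12 of 14 positive, against -0.0016 and 49.5% positive over all genes. Of these 14, 2 reached an unadjusted limma p under 0.05, both higher, against 22.2% of all genes (10.7% higher).

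Between switched and lifelong livers, the TGF-beta and CCN list had a median of +0.13 with 12 of 14 positive and 4 of 14 at an unadjusted limma p under 0.05, all 4 higher, against 48.9% of all genes positive and 7.87% at that p (3.91% higher). Tgfb2 differed by +0.25 (limma adjusted p = 0.453) and Ltbp2, of a family that binds latent TGF-beta, by +0.18 (limma adjusted p = 0.531). Fibril-binding proteins had a median of +0.12 with 8 of 9 positive. Their medians within batches G150, G151 and G152 were +0.05, +0.36 and +0.10, and those of the TGF-beta and CCN list +0.11, +0.16 and +0.10. Batch G151 held 1 liver of each of these groups, and its switched liver was replicate 1. Postn, a matrix protein of fibrotic tissue, differed by +0.37 (limma adjusted p = 0.584) with 8 of 8 switched livers above the lifelong mean. The rodent collagenase Mmp13 differed by +0.52 (limma adjusted p = 0.381), also with 8 of 8 switched livers above the lifelong mean. The laminin chain Lama3 differed by -0.55 (limma adjusted p = 0.289), with 0 of 8 above it. None of these lists is tested as a whole here, and all genes of this comparison had a median of -0.0025.

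The remaining collagens differed little. The hexagonal-network chains Col8a1, Col8a2 and Col10a1, the membrane-spanning Col13a1, Col17a1, Col23a1 and Col25a1, and Col26a1 and Col28a1 had 0 calls by limma in 4 comparisons, with differences from -0.16 (Col13a1, 24 and 12 months) to +0.15 (Col8a1, 24 and 12 months); Col25a1 between switched and lifelong livers was the 1 value of these with an unadjusted p under 0.05. Of the fibril-associated chains other than Col12a1 and Col14a1, Col9a1, Col9a2, Col16a1, Col19a1, Col20a1 and Col22a1 differed by between -0.16 and +0.17. Col16a1 exceeded its mean at 6 months in 7 of 7 livers at 12 months and in 7 of 7 at 24 months (+0.13 and +0.12, with limma adjusted p of 0.34 and 0.269).

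For 4 genes a second probe set gave another reading. For Col20a1 the second probe set differed by +0.27 between 24 and 6 months (limma adjusted p = 0.116) and by -0.26 between switched and lifelong livers (limma adjusted p = 0.504), whereas the brighter one differed by +0.09 and -0.16. Between 24 and 12 months the 2 probe sets of Col20a1 had opposite signs, +0.28 for the second (limma adjusted p = 0.255) and -0.08 for the brighter one. For Col6a5 the second differed by -0.21 between 24 and 6 months (limma adjusted p = 0.103) and the brighter one by -0.12. For Col6a6 the second differed by -0.21 between switched and lifelong livers (limma adjusted p = 0.44) and the brighter one by -0.16 (limma adjusted p = 0.792). The unadjusted p of this second probe set was smaller than that of any of the 42 representative probe sets in the comparison of switched with lifelong livers. The second probe sets of Col6a6 and Col20a1, both lower in value in switched livers and both with an unadjusted p under 0.05, are not in the count of 5 higher and 1 lower given above. The age counts likewise leave out second probe sets with an unadjusted limma p under 0.05. These were Col6a5 between 12 and 6 and between 24 and 6 months, and Col20a1 between 24 and 6 and between 24 and 12 months. For Col5a1 the second probe set differed by -0.08 between 24 and 6 months and the brighter one by +0.07. None of the 4 second probe sets passed in any comparison (0 calls by limma).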

How the data were processed

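Liver RNA with an RNA integrity number above 8.0 was hybridised as biotin-labelled cDNA, 1 array for each of 28 mice. The deposited values are log2 expression values that the authors summarised with RMA, per the submitters' processing notes; the RMA version and genome build are not given in the sources used here. They were used as deposited. The probe-to-gene table gave 1 gene for 21218 of 35556 probe sets, several for 1881 and none for 12457.

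A linear model with terms for the 4 groups and for array batch was fitted to the 28 arrays with limma 3.58.1 under R 4.3.3, with empirical Bayes moderation. Two-sided p-values were adjusted over the 35556 probe sets of a comparison (Benjamini-Hochberg), and 0.05 was the threshold. Counts over all genes use 1 probe set for each of 18820 genes. The number of arrays limits the precision of every difference. Intervals are 95% intervals from the moderated standard error. Within-batch values compare group means inside 1 batch. Correlations used 100000 permutations of livers in Python 3.11.15 (numpy 2.4.6, pandas 2.3.3; figures with matplotlib 3.10.9). Scripts were tested on simulated data.

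Every collagen may be named; livers are given for collagens that pass and for 12 chosen ones, and of the other lists only genes that pass or the 3 with the smallest p in a comparison are named, besides albumin. The collagens, classes and lists were chosen with earlier results of these data known, and the PPARA targets were added after the values were seen. Alternatives were no batch term, batch subsets, only the groups compared, a filter on the dimmest 30%, repeated quantile normalisation, trend with robust moderation, array weights, a replicate block, probe set means and each liver left out. A fit without the 2 arrays with a suffix in their name was added after seeing the data. Col7a1 and Col9a3 were not analysed here.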

Additional observations from a re-analysis of the deposited data

Results flagged for a closer look

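A single liver lay far from the others of its group (gap to the nearest liver over the group's range above Dixon's 95% critical value) in 11 of 168 gene and group combinations, and chance flags about 1 in 20, or 8.4. Lifelong 12-month replicate 4, the 1 liver of its group in batch G152, was highest in Col1a2 (6.54, next 6.08), Col6a3 (6.23, next 5.67) and Col4a4 (5.16, next 4.91). Its macrophage marker score was -0.74, the lowest of its group, and its stellate cell and portal fibroblast marker scores were -0.05 and 0.13; their part was not tested. Without this liver, Col6a3 differed between 24 and 12 months by +0.47 (limma adjusted p = 0.195), against +0.35 with it. The other 12-month livers that stood apart were replicate 5 in Col22a1 (5.17, lowest), replicate 6 in Col5a3 (5.24, lowest) and replicate 7 in Col6a4 (3.93, lowest). Among switched livers, replicate 6 was highest in Col13a1 (6.09), replicate 3 in Col27a1 (6.87) and replicate 7 in Col5a2 (5.02). Among 6-month livers, replicate 4 was lowest in Col4a6 (4.00) and replicate 6 in Col5a3 (5.12).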

How the results depend on the processing

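Of 168 collagen and comparison pairs, refitted under the alternatives and with each liver left out (4158 fits in all), 0 called values reversed, 0 gained a call and 2 lost one in at least 1 fit, both Col12a1. Between 12 and 6 months its call was lost, and the count of called collagens went to 0, with G150 livers only (difference -0.76, limma adjusted p = 0.648), with G151 and G152 livers only (-0.98, 0.329), with only the compared groups in the fit (-0.85, 0.158), without the 2 arrays that have a suffix in their name, a fit chosen after seeing the data (-0.81, 0.0577) and with a replicate block beside the batch term (-0.86, 0.072). With 1 liver left out the count ranged from 0 to 1 and the Col12a1 difference from -1.0 to -0.72. Between 24 and 6 months the count went to 0 with G150 livers only, with G151 and G152 livers only, and with only the compared groups; it stayed at 1 with the replicate block (limma adjusted p = 0.0278) and was 1 in every fit with 1 liver left out. In the batch subsets and the fits of only the compared groups fewer livers entered. The fits of only the compared groups also left out groups whose SD of Col12a1 was smaller than that of the 6-month livers. The counts for 24 with 12 months and for switched with lifelong livers were 0 under every alternative run. The median collagen difference between 12 and 6 months was -0.043 in batch G150 alone and +0.087 in batches G151 and G152 alone, and between 24 and 12 months it was -0.062 in batches G151 and G152 alone; the cause was not tested. With 1 liver left out the medians ranged from -0.014 to 0.032, -0.023 to 0.031, -0.019 to 0.031 and -0.025 to 0.012 for 12 with 6, 24 with 6, 24 with 12 months and switched with lifelong. Replicate numbers did not pair the samples: deviations of same-numbered livers correlated at -0.11 to 0.15, over 0.1 in 1 of the pairs, and the block changed no other call. Values near background limit small differences of dim collagens, since no detection call was available.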
